A study of Homo sapiens with 18 samples.

Results

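The response to MycER activation at 48 h in cells given a control siRNA was measured in 6 of the 18 RNA-seq libraries of the series. The 3 siCtrl libraries at 48 h were compared with the 3 siCtrl OHT libraries at 48 h, and 14993 of the 23399 genes in the table entered the comparison, namely those with a mean of at least 1 eRPKM over all 18 libraries. eRPKM is the number of reads on the exons of a gene per kilobase of exon, scaled to the depth of the library. Levels can be set side by side between genes of low or moderate level. Those of abundant genes are compressed by the removal of duplicate reads, as described below. Every library of the series came from U2OS, a line of human osteosarcoma cells, carrying MycER, a fusion of MYC with the hormone-binding part of the estrogen receptor, delivered by a retrovirus (pbabe-puro). All 6 libraries came from cells transfected with an siRNA against Renilla luciferase, which has no target in human cells. At the time of transfection the cells also received either 400 nM OHT (4-hydroxytamoxifen, which activates MycER) or ethanol. The other groups were siCtrl cells at 24 h and cells transfected with an siRNA against RAD21, a subunit of cohesin, each with ethanol or OHT and with 2 libraries per group. No OHT-treated cells without MycER were analysed here, so effects of OHT through MycER and any other effects of OHT cannot be told apart.

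MYC is a transcription factor that binds DNA together with MAX, preferentially at the E-box CACGTG, and is known for activating genes of ribosome assembly, protein synthesis, nucleotide synthesis and glycolysis. The MXD proteins, MXI1 and MNT also pair with MAX at E-boxes and act as repressors there. MYC is also known to lower the expression of CDK inhibitors and of genes of cell adhesion and extracellular matrix. MycER is held inactive in the cytoplasm until OHT binds its hormone-binding part.

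To show where the E-box lies in genes that rose at 48 h, 4 promoter sequences are given, being those of the 4 largest rises among called members of the gene lists described below whose promoter held CACGTG in the 250 bases before the start site. They are DHODH, an enzyme of pyrimidine synthesis; CD3EAP (POLR1G in RefSeq), a subunit of RNA polymerase I; BNIP3, a mitophagy receptor; and NAT10, an RNA acetyltransferase of the nucleolus. Each run is 250 bases long, ends at the base before the start site, is written 5′ to 3′ on the strand of the gene from RefSeq on GRCh38.p14, and has the E-box in capitals.
DHODH (chr16:72008494-72008743, plus strand): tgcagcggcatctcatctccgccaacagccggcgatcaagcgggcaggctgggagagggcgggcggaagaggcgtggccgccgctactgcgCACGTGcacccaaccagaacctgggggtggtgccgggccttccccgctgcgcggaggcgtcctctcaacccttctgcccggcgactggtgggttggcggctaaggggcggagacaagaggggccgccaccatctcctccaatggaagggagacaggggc
CD3EAP (chr19:45406394-45406643, plus strand): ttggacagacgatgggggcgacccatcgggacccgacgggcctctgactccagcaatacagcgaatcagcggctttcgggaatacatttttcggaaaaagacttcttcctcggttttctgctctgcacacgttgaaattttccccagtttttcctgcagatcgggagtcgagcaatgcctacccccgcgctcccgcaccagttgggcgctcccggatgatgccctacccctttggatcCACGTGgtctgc
BNIP3 (chr10:131981924-131982173, minus strand): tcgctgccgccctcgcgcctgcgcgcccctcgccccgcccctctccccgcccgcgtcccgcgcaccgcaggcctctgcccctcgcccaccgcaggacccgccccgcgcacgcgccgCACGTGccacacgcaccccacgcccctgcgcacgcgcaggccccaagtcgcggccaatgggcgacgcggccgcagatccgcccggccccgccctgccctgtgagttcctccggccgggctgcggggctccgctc
NAT10 (chr11:34105379-34105628, plus strand): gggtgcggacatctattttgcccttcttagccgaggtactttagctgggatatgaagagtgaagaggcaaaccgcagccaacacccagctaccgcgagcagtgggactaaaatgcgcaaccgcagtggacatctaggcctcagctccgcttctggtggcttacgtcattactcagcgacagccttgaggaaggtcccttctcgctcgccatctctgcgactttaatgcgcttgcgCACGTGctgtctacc

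The E-box began 159 bases before the start site of DHODH, 134 before that of BNIP3, 15 before that of NAT10 and 12 before that of CD3EAP. The BNIP3 sequence also held CACGCG, a related motif, 2 times, counted on either strand. CACGTG, whose reverse complement is itself, was found in 7.43% of the 27305 promoter windows of 300 bases in the RefSeq table, and CACGCG in 11.4%. Only 11177 of the 14993 genes tested could be matched to a promoter window, which is under 80%, so a comparison of these shares between higher and lower genes is void. The presence of the motif was a condition for printing these promoters and is not a result.

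At 48 h of OHT, 2684 genes (17.9% of those tested) were called, 1166 higher (7.78%) and 1518 lower (10.1%). A gene was called at an adjusted p under 0.05 in limma with Benjamini-Hochberg adjustment and an absolute log2 fold change above 0.5, both on log2(eRPKM + 0.5). Most of the changes were moderate in size. The log2 fold change passed 1 in 224 genes that rose and 292 that fell, and it passed 2 in 29 and 20 genes. The 3 OHT libraries did not overlap the 3 ethanol libraries in 1142 of the 1166 genes called higher and 1464 of the 1518 called lower, against 56.1% of all genes tested. The call and the overlap rest on the same libraries, so these counts are a description. Just inside the threshold lay 188 genes with log2 fold changes from 0.50 to 0.52 in size, and just outside it 192 genes from 0.48 to 0.50. Protein-coding genes gave 994 higher and 1259 lower calls of 12282 tested, and lncRNA genes 43 higher and 75 lower of 603.

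The direction of the calls moved with the level of the gene. Among 4025 genes with a mean of 1 to 5 eRPKM, 333 were called higher and 694 lower, and among 5458 genes from 5 to 20 eRPKM the counts were 470 and 657. Among 5129 genes from 20 to 100 eRPKM the order was the opposite, with 347 higher and 136 lower, and none of the 103 genes from 100 eRPKM up was called by limma (29 had an unadjusted p under 0.05) or by voom, the limma method for counts run on recovered reads. The authors removed duplicate reads, which leaves at most 2 reads per exon base (1 on each strand) and sets a ceiling of 185 to 207 eRPKM in the 6 libraries. The largest value in the 6 libraries, 174 eRPKM, stood at 85.5% of that ceiling, and 158 genes had a value above 50% of it. Levels and fold changes of such genes are compressed, and those of genes below 50% of the ceiling are compressed to a lesser degree. Values with the ceiling undone by calculation are given below for some genes and lists, where this is said. All other values, such as those of IGFBP5, are as deposited.

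**Figure D1:**
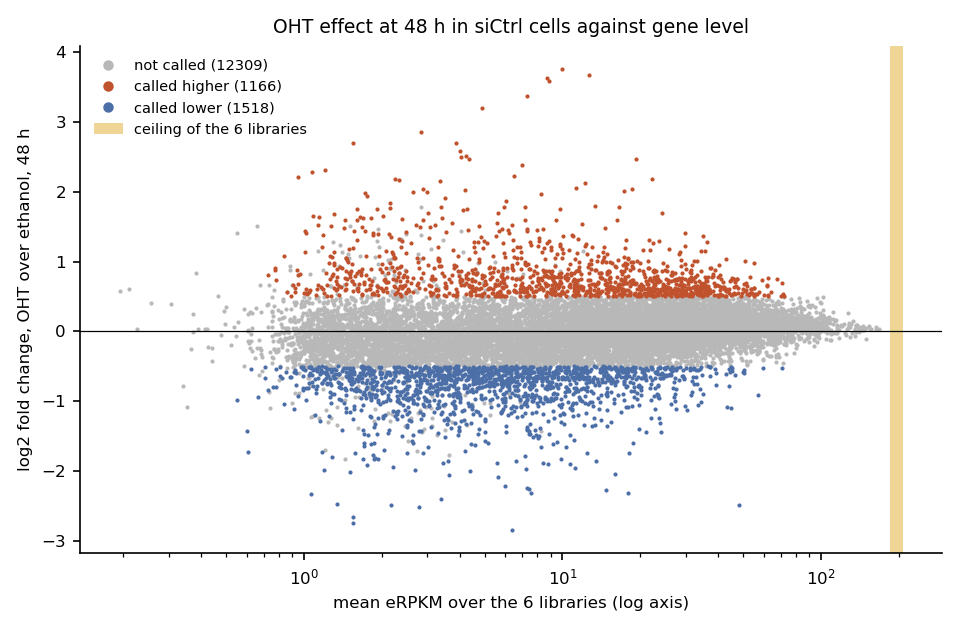
Each dot is 1 of the 14993 genes tested, with its mean eRPKM over the 6 libraries on a log axis and its log2 fold change of OHT over ethanol at 48 h in siCtrl cells. The 1166 genes called higher and the 1518 called lower lie at levels well below the ceiling (yellow band, 185 to 207 eRPKM), and the spread of the fold changes narrows towards it.

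Depth recovered from the values was 9647501 to 10786815 reads in the 6 libraries. Of 10 mesenchymal markers of this osteosarcoma line, 9 had a mean of at least 1 eRPKM (COL1A2 did not), with summed levels of 451 to 468 eRPKM in ethanol and 402 to 412 in OHT, and FN1 and RUNX2 were called lower. Markers of other cell types were low, with 6 blood markers summing to 0.916 to 1.41 eRPKM in ethanol and 1.57 to 1.65 in OHT, 4 endothelial markers to 1.38 to 1.75 and 1.21 to 1.53, and 3 liver markers to 0.780 to 1.3 and 0.905 to 1.31. HBB was at 0 in all 6 libraries and ITGAM was called higher, from a mean of 0.592 to 1.22 eRPKM. Of 8 epithelial markers, summed at 19.6 to 21.4 eRPKM in ethanol and 15.9 to 18.5 in OHT, EPCAM rose and KRT14 and KRT5 fell. Of 3 neural markers, summed at 9.71 to 10.4 eRPKM in ethanol and 25.02 to 26.6 in OHT, OLIG2 and RBFOX3 rose while GFAP lay between 0.411 and 0.636. The part of any change in cell makeup in the results was not tested. RAD21, which the control siRNA does not target, read 93.3, 96.9 and 89.0 eRPKM in ethanol and 89.1, 96.3 and 96.2 in OHT, and these libraries overlapped. In bulk RNA, fewer cells of a type and less RNA per cell cannot be told apart.

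In the network of MYC and its partners, the repressor genes MXD4 and MXD3 fell and MAX was higher by an amount under the threshold. MXD4 read 15.01, 14.03 and 14.6 eRPKM in ethanol and 4.21, 4.47 and 4.81 in OHT (log2 fold change -1.59 ± 0.062 SE, adjusted p = 4.18e-10). MXD3 went from 16.3, 17.3 and 18.02 eRPKM to 9.47, 10.9 and 10.2 (-0.73, adjusted p = 4.8e-06). MYCL, a paralog of MYC, also fell, from a mean of 7.14 ± 0.91 (SD, n = 3) to 4.004 ± 0.35 eRPKM (-0.76). Of the 12 members tested these 3 were called lower and none higher. About 24.2% of the MXD3 exon bases are shared with PRELID1, and the counts carry no strand.

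MYC itself read 54.6, 49.95 and 52.3 eRPKM in ethanol and 49.4, 43.3 and 41.95 in OHT. The libraries did not overlap, and the log2 fold change of -0.22 ± 0.057 (adjusted p = 0.00464) was under the threshold of 0.5. Reads from the endogenous gene and from the MYC part of the fusion cannot be told apart in these values. MAX read 26.2, 25.5 and 26.9 eRPKM in ethanol against 34.9, 35.5 and 36.1 in OHT (0.43, adjusted p = 1.12e-06), and MXI1 was higher by 0.39. MXD1 (log2 fold change 0.14) and MNT (0.013) had overlapping libraries. ESR1, the estrogen receptor gene, lay between 0.495 and 0.588 eRPKM in the 6 libraries and was not tested.

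The largest rises were in ADCYAP1R1, PDE1B, CAMKV, G0S2 and CR2. ADCYAP1R1, the receptor for the neuropeptide PACAP (GRCh37 chromosome 7, 31091923 to 31151088), had 18.2 to 19.3 eRPKM in OHT, against 0.786 to 1.25 in ethanol, and PDE1B, a phosphodiesterase, and CAMKV, a kinase-like vesicle protein, followed it. G0S2, an inhibitor of the triglyceride lipase ATGL (chromosome 1, 209848757 to 209849735), read 0.639, 0.934 and 1.25 eRPKM in ethanol and 14.1, 18.6 and 17.5 in OHT (3.59 ± 0.15, adjusted p = 5.49e-10). CR2, the complement receptor of B cells, read 0.911, 0.743 and 0.978 eRPKM in ethanol and 14.7, 12.6 and 13.9 in OHT (3.37 ± 0.095, adjusted p = 3.4e-11). Libraries that did not overlap were a condition for choosing these genes, so their separation is not a result.

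GABRA5, a subunit of the GABA-A receptor, was already expressed in ethanol, at 4.75, 5.92 and 5.96 eRPKM, and reached 31.1, 32.8 and 34.9 (2.47 ± 0.085). It had the highest level in OHT of the 12 genes with the largest rises. EPHA8, an ephrin receptor (2.70), SLC27A2, a fatty acid transporter and acyl-CoA synthetase (2.51), MATK, a kinase that acts on SRC family kinases (2.50), TNFRSF8, the receptor CD30 (2.47), and PDZRN3, a ubiquitin ligase (2.38), rose from means of 0.677 to 1.94 eRPKM to means of 7.10 to 12.1. The antisense RNA FAM222A-AS1 (3.20) rested on 3 to 7 reads per library in ethanol and 70 to 90 in OHT. As the library kit does not mark strand, its reads cannot be told apart from those of genes it overlaps.

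**Figure D2:**
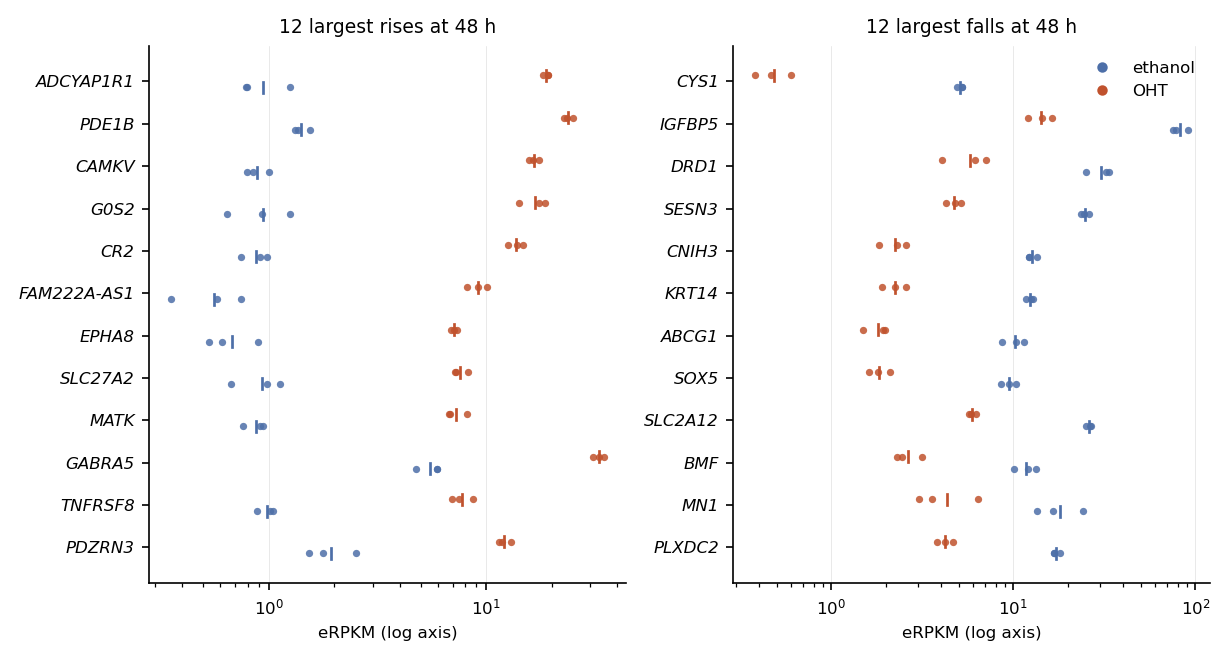
The 12 largest rises (left) and 12 largest falls (right) at 48 h in siCtrl cells among called genes with at least 5 eRPKM in 1 of the groups. Dots are the 3 ethanol (blue) and 3 OHT (orange) libraries on a log axis of eRPKM, and vertical bars are the means. Genes whose groups overlapped were left out by the choice of genes.

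The largest falls included CYS1, a protein of the primary cilium, IGFBP5, a binding protein for insulin-like growth factors, and DRD1, the dopamine D1 receptor. CYS1 read 5.21, 5.25 and 4.88 eRPKM in ethanol and 0.467, 0.381 and 0.597 in OHT (-2.52 ± 0.10). DRD1 read 33.5, 32.1 and 25.01 eRPKM in ethanol and 7.09, 6.18 and 4.06 in OHT (-2.31 ± 0.16, adjusted p = 4.44e-08). The third library was the lowest of its group for DRD1 in both treatments. SESN3, a stress-induced regulator of mTORC1, fell from 25.9, 24.6 and 23.6 eRPKM to 4.81, 4.26 and 5.15 (-2.27 ± 0.095). The falls in SESN3 and CYS1 were uniform over the libraries.

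KRT14, a keratin of basal epithelium, fell from 11.8, 12.5 and 12.8 eRPKM to 2.57, 1.90 and 2.23 (-2.24 ± 0.18). Near-identical keratin genes could share its reads. CNIH3, an auxiliary subunit of AMPA receptors (-2.26), ABCG1, a cholesterol exporter (-2.21), SOX5, a transcription factor of cartilage and neurons (-2.09), SLC2A12, a glucose transporter (-2.05), BMF, a BH3-only activator of apoptosis (-1.98), MN1, a transcriptional coactivator (-1.96), and PLXDC2, a plexin domain receptor (-1.91), made up the rest of the 12. SLC2A12 shares 51.2% of its exon bases with TBPL1. MN1 varied between libraries, at 24.1, 13.5 and 16.4 eRPKM in ethanol and 6.42, 3.04 and 3.57 in OHT, and the first library was the highest in both groups.

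Of 57 genes of nucleolar ribosome biogenesis, 29 were called higher, against a background of 7.78%, and none lower. All 57 had log2 fold changes above 0 (from 0.10 to 1.17, median 0.52, against -0.013 for all genes tested), and in all 57 the OHT libraries lay above the ethanol libraries, against 27.3% of all genes tested. RRP12, a factor of ribosome export, read 12.8, 11.6 and 12.7 eRPKM in ethanol and 31.3, 28.6 and 25.7 in OHT (1.17 ± 0.065). DDX10, an RNA helicase, read 11.8, 12.3 and 12.1 eRPKM in ethanol and 22.4, 23.5 and 23.7 in OHT (0.91 ± 0.037, adjusted p = 5.49e-10). Both genes were chosen as the largest called rises of this list.

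Of the 57 nucleolar genes, 4 had a value above 50% of the ceiling. NCL and NPM1, both abundant, showed smaller changes than the list median of 0.52, or 0.55 with the ceiling undone. NCL (nucleolin) read 96.2, 99.5 and 95.3 eRPKM in ethanol and 106, 114 and 112 in OHT, a log2 fold change of 0.19 as deposited and 0.25 with the ceiling undone. NPM1 (nucleophosmin) gave 0.13 as deposited and 0.16 with the ceiling undone, and neither gene was called. Both were chosen after their values were seen.

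Among 28 subunit and factor genes of the polymerases that make ribosomal RNA and tRNA, 6 were called higher and POLR3GL lower, against backgrounds of 7.78% and 10.1% (median 0.33). POLR3G and POLR3GL encode alternative subunits of RNA polymerase III, and their levels moved in opposite directions. POLR3G rose from 14.9, 17.1 and 15.9 eRPKM to 40.4, 43.6 and 46.1 (1.41 ± 0.057, adjusted p = 5.42e-10). POLR3GL fell from 14.98, 19.5 and 17.2 eRPKM to 9.47, 9.88 and 11.1 (-0.73 ± 0.11), and 21.1% of its exon bases lie in another annotated transcript. POLR1B, the second largest subunit of RNA polymerase I, rose from 22.4, 24.9 and 24.7 to 41.0, 43.1 and 42.4 eRPKM (0.80 ± 0.047).

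Cytosolic ribosomal protein genes gave no call in either direction by limma or voom among 84 tested (28 had an unadjusted p under 0.05), with a median of 0.084, and 26 of them lay above 50% of the ceiling. Their median was -0.0010 under quantile normalization, so no direction can be given. With the ceiling undone 1 of the 84 was called higher. Of 75 mitochondrial ribosomal protein genes, 8 were called higher and none lower, a share close to the background of 7.78%, with 74 above 0 and a median of 0.29. Among 25 genes of mitochondrial protein import, 4 were called higher and none lower (median 0.33), among them GRPEL1, a cofactor of the matrix chaperone (0.77 ± 0.064, from 21.3 ± 1.5 to 36.5 ± 1.9 eRPKM, SD, n = 3), and TIMM44 (0.64 ± 0.050). In translation 2 higher and 1 lower of 38 initiation factors were called (median 0.14), 1 higher of 20 aminoacyl-tRNA synthetases (0.17) and 1 higher of 25 chaperonins and heat shock proteins (0.18).

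In purine synthesis 3 of 14 genes were called higher (PPAT, PFAS and IMPDH1), against a background of 7.78%, and all 14 were above 0 (median 0.30). IMPDH1, which commits IMP to guanine nucleotides, read 38.1, 39.0 and 39.8 eRPKM in ethanol and 63.0, 64.7 and 62.2 in OHT (0.69 ± 0.045), and PFAS read 0.55. In pyrimidine and deoxynucleotide synthesis 4 of 20 were called higher and 1 lower (median 0.096). DHODH went from 6.68, 7.41 and 8.86 eRPKM to 16.5, 13.97 and 16.3 (0.99 ± 0.088), and CAD, the enzyme of the first steps, from 24.3, 17.4 and 22.1 to 40.05, 30.1 and 28.8 (0.62 ± 0.12). The CAD libraries did not overlap, but its call was lost without the second ethanol library (0.49) and without the first OHT library (0.48). UMPS, which makes UMP from orotate, read 16.4, 16.2 and 15.9 eRPKM in ethanol and 23.2, 23.6 and 23.2 in OHT (0.52 ± 0.034), a call lost under quantile normalization (0.48). CAD, DHODH and UMPS together carry out the synthesis of UMP.

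HK2, the hexokinase that opens glycolysis, read 6.64, 7.44 and 7.58 eRPKM in ethanol and 27.6, 25.3 and 25.01 in OHT (1.78 ± 0.055, adjusted p = 4.54e-11). Its rise was the largest of the glycolysis list, in which 3 of 23 were called higher and 1 lower (median 0.11). The backgrounds were 7.78% and 10.1%, and the lower gene was the glucose transporter SLC2A3 (-0.63). ODC1, the first enzyme of polyamine synthesis and a textbook MYC target, read 81.1, 89.7 and 84.5 eRPKM in ethanol and 109, 118 and 114 in OHT. It was not called at 0.42, while its value with the ceiling undone, 0.58, was past the threshold. Polyamine metabolism gave no higher and 1 lower call of 14 (median 0.059), and serine, glycine and one-carbon enzymes gave none and 1 of 16 (0.071). Amino acid transporters gave 2 higher of 18 (0.072), and cholesterol synthesis 1 of 24, DHCR7 (0.65 ± 0.034), with a median of 0.19.

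Few genes of DNA replication and mitosis were called. No gene was called by limma or by voom among 30 of origin licensing and firing (median 0.15), 25 G1/S cyclins, kinases and E2F genes (0.026) or 42 mitotic genes (0.0018). At an unadjusted p under 0.05 stood 20, 17 and 14 of them, with log2 fold changes under 0.5 in size. With the ceiling undone 1 G1/S gene was called higher and 1 lower. In addition, 1 higher and 1 lower were called among 27 replicative polymerases and fork proteins (0.13). Of 7 CDK inhibitors tested, 5 were called lower, against a background of 10.1%, and none higher (median -0.88). For every list the backgrounds at 48 h are 7.78% called higher and 10.1% called lower. The lists' shares are set beside these backgrounds as a description, without a test of the list.

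Among the inhibitors of CDK4 and CDK6, CDKN2C (p18) read 24.9, 27.4 and 28.2 eRPKM in ethanol and 12.3, 11.6 and 14.2 in OHT (-1.05 ± 0.085, adjusted p = 2.23e-07). CDKN2D (p19) went from 10.1, 12.5 and 13.9 eRPKM to 6.79, 5.46 and 6.49 (-0.90). CDKN2B (p15) was low throughout, at 2.42, 2.18 and 2.91 eRPKM in ethanol and 1.299, 0.859 and 1.1 in OHT (-0.92). All 3 had groups that did not overlap.

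Of the inhibitors that act on CDK2 complexes, CDKN1C (p57) read 8.30, 7.61 and 7.88 eRPKM in ethanol and 3.74, 4.89 and 3.73 in OHT (-0.88). CDKN1B (p27) read 42.3, 45.6 and 43.3 in ethanol and 30.1, 29.9 and 31.4 in OHT (-0.51 ± 0.036), a call close to the threshold that was lost under median centring, at -0.48. CDKN1A (p21) read 76.0 to 78.7 eRPKM in ethanol and 82.7 to 87.4 in OHT (0.14), and CDKN3 had overlapping libraries (-0.058). The 5 falls thus held for both inhibitor families but not for CDKN1A or CDKN3. About 20.4% of the CDKN2C exon bases lie in another annotated transcript.

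**Figure D3:**
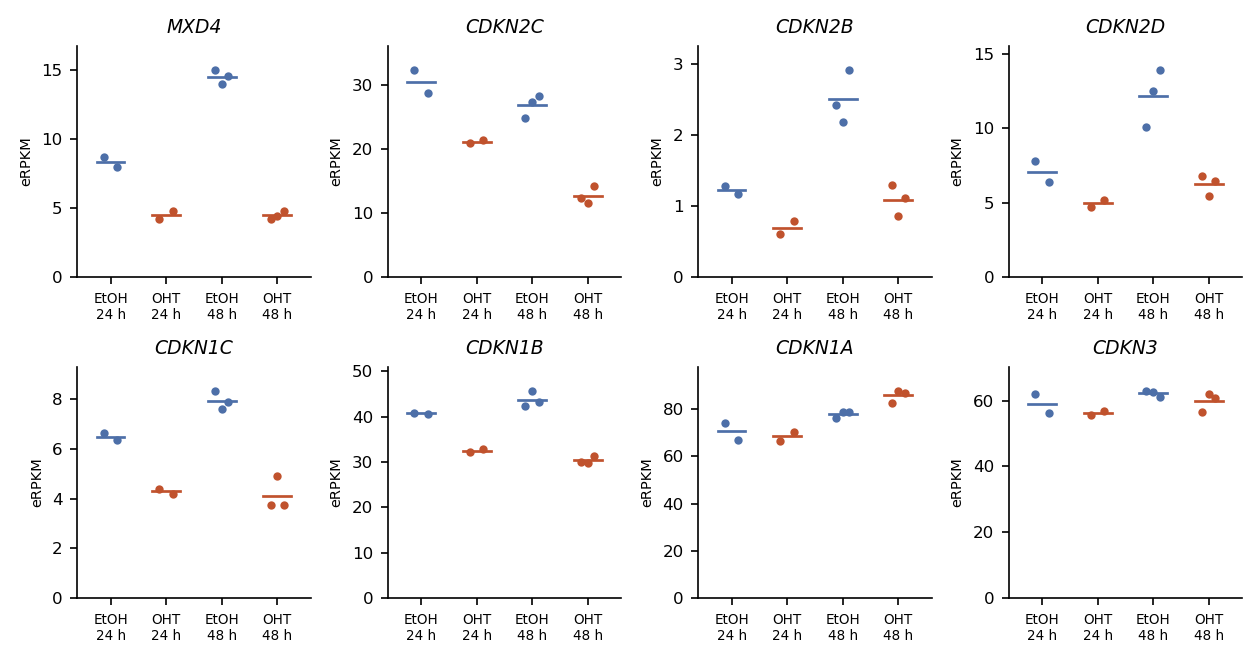
eRPKM of MXD4 and the 7 CDK inhibitor genes in every siCtrl library at 24 h (2 libraries per group) and 48 h (3 per group), with ethanol in blue, OHT in orange, means as bars and axes from 0. MXD4 in ethanol stood higher at 48 h (14.03 to 15.01) than at 24 h (8.01 and 8.69), while in OHT it lay at 4.2 to 4.81 at both times.

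Genes of p53 and of apoptosis were mixed. Of 30 p53 targets 4 were called higher and 2 lower, against backgrounds of 7.78% and 10.1% (median 0.12). GDF15, a stress cytokine, rose from 6.59, 6.74 and 5.56 eRPKM to 16.4, 16.0 and 12.1 (1.16 ± 0.14), and PLK3, a stress kinase, rose by 0.70. TP53INP1, a cofactor of p53 in autophagy and apoptosis, fell from 11.4, 11.03 and 12.4 eRPKM to 3.94, 4.16 and 4.09 (-1.41 ± 0.077). In the BCL2 family of 16, the anti-apoptotic BCL2A1 (1.49) and the pro-apoptotic BIK (0.71) rose, and BMF, which activates apoptosis, fell from 11.99, 10.1 and 13.3 eRPKM to 2.29, 2.45 and 3.14. BCL2A1 rested on 4 to 9 reads per library in ethanol.

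In the extracellular matrix some genes were called lower and most were not called, which can mean a change under the fold threshold. Of 25 collagen genes, 9 were called lower and 2 higher (median -0.32), and of 35 matrix glycoproteins, proteases and crosslinkers, 13 were lower and 1 higher (median -0.39), against backgrounds of 10.1% and 7.78%. Log2 fold changes were below 0 in 19 of the 25 and 29 of the 35, against 7770 of all 14993 genes tested. COL11A1, a chain of fibrillar type XI collagen, read 16.3, 14.9 and 15.9 eRPKM in ethanol and 4.07, 3.81 and 4.30 in OHT (-1.83 ± 0.077, adjusted p = 6.26e-10). COL9A2 fell by 1.49 on the log2 scale, from 16.0 ± 0.62 to 5.38 ± 0.45 eRPKM (SD, n = 3). COL17A1, a transmembrane collagen of epithelia, went the other way, from 1.15, 1.17 and 1.397 eRPKM to 3.39, 3.90 and 3.27 (1.21).

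FN1 (fibronectin) fell from 46.5, 38.7 and 40.2 eRPKM to 22.1, 18.1 and 16.4 (-1.13 ± 0.085). EFEMP2, an elastic fibre protein, fell by 1.16 on the log2 scale, and the lysyl oxidases LOX, LOXL1, LOXL2 and LOXL4, which crosslink collagen and elastin, were all called lower. ADAMTS1, a secreted protease, was the 1 gene called higher in this list, and its libraries overlapped, at 5.67, 8.51 and 14.3 eRPKM in ethanol and 10.7, 13.2 and 19.7 in OHT (0.64 ± 0.25, adjusted p = 0.0429). COL1A1 also overlapped, at 59.1, 28.1 and 34.0 eRPKM in ethanol and 37.4, 14.5 and 15.2 in OHT (-0.91 ± 0.30, adjusted p = 0.0188). In both genes the libraries with the same replicate number kept the same order in ethanol and OHT. With the replicate number as a block the adjusted p was 0.000217 for ADAMTS1 and 3.84e-05 for COL1A1. With the siRAD21 OHT libraries at 48 h averaged, the limma call of ADAMTS1 was lost (adjusted p = 0.0515). With only the groups compared in the limma fit, both calls were lost (adjusted p = 0.15 for ADAMTS1 and 0.0957 for COL1A1). Without the first ethanol library the ADAMTS1 value was 0.33 and not called, and that of COL1A1 was -0.60 and not called.

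Of 25 integrin and laminin genes 5 were called lower and 1 higher, against backgrounds of 10.1% and 7.78% (median -0.18). ITGB8, an integrin chain that activates latent TGF-beta, fell from 31.6, 28.2 and 26.6 eRPKM in ethanol to 11.5, 10.0 and 10.3 in OHT (-1.40 ± 0.091). ITGB3 fell by 1.48 on the log2 scale, and 33.2% of its exon bases lie in another annotated transcript. In the TGF-beta and BMP list 6 of 33 were called lower and 2 higher, against the same backgrounds (median -0.26). LTBP1, which stores latent TGF-beta in the matrix, fell from 18.02, 17.1 and 16.6 to 8.10, 7.20 and 6.92 eRPKM (-1.17), and the receptor BMPR2 fell by 0.96. The ligand BMP6 rose from 3.70, 3.76 and 3.02 eRPKM to 10.1, 9.15 and 8.79 (1.303 ± 0.093).

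IGFBP5 fell from 91.5, 75.6 and 78.7 eRPKM in ethanol to 16.2, 12.1 and 14.4 in OHT (-2.49 ± 0.10), and IGFBP7 fell from 12.7, 12.6 and 12.6 to 6.38, 6.22 and 6.32 (-0.95). In the IGF list 4 of 11 were called lower and none higher, against backgrounds of 10.1% and 7.78% (median -0.28). Of 12 osteoblast lineage genes 4 were called lower and none higher, against the same backgrounds (median -0.19). SPP1 (osteopontin) was called lower, at 12.1, 13.8 and 14 eRPKM in ethanol and 4.14, 4.11 and 5.14 in OHT (-1.48 ± 0.077). RUNX2, the osteoblast transcription factor, and TNFRSF11B were called too, and COL1A1 stands in this list as well as among the collagens. The YAP/TAZ and actin list had 2 lower and 1 higher of 27 (median -0.13).

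Interferon-stimulated genes had a median of -0.46, with 10 of 26 called lower and ISG20 called higher, against backgrounds of 10.1% and 7.78%. OASL, an antiviral 2'-5'-oligoadenylate synthetase-like protein, read 4.38, 4.65 and 4.76 eRPKM in ethanol and 0.655, 0.696 and 1.02 in OHT (-1.99 ± 0.17). IFI44 fell from 11.9, 13.1 and 11.6 eRPKM to 3.67, 4.14 and 4.10 (-1.504 ± 0.081). STAT2, the signal transducer of type I interferon, was also called lower. Class I antigen presentation had 2 higher and 1 lower of 14 (median -0.065).

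In the NF-kB list 4 of 23 were called higher and none lower, against backgrounds of 7.78% and 10.1% (median 0.29). TRAF1, an adaptor of TNF receptors and a feedback target of NF-kB, rose from 2.89, 3.01 and 2.96 eRPKM to 11.6, 12.1 and 10.5 (1.78 ± 0.055, adjusted p = 4.24e-11). The subunit genes NFKB2 and RELB and the chemokine CXCL8 were the others, and CXCL8 varied more, at 10.3, 14.7 and 6.96 eRPKM in ethanol and 17.9, 24.3 and 15.8 in OHT (0.86 ± 0.20). At 24 h in siCtrl cells the NF-kB list had 1 gene called higher and 4 lower, and at 48 h in siRAD21 cells 4 and 4. In the ATF4 and unfolded protein list 3 of 27 were called higher, against a background of 7.78% (median 0.072). ATF3 read 12.4, 15.7 and 26.1 eRPKM in ethanol and 35.3, 36.4 and 44.8 in OHT (1.14 ± 0.18). TRIB3, a pseudokinase induced by ATF4, rose by 1.10 ± 0.054.

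Lysosome and autophagy genes were called lower in 11 of 44 cases and higher in 1, against backgrounds of 10.1% and 7.78% (median -0.25). WIPI1, a phosphoinositide-binding autophagy protein, fell from 15.1, 16.5 and 15.4 eRPKM to 7.15, 8.08 and 8.07 (-0.97 ± 0.083), and CTSO, a cathepsin, fell by 0.99. BNIP3, whose promoter is shown above, was the gene called higher, from 13.1, 14.99 and 15.4 eRPKM to 21.8, 24.2 and 25.6 (0.70 ± 0.077). WIPI1 shares 24.4% of its exon bases with ARSG. In the circadian clock list 4 of 18 were called lower and 1 higher (median -0.21), with BHLHE41, a repressor of the clock, at 19.8, 15.3 and 18.5 eRPKM in ethanol and 12.03, 9.16 and 10.4 in OHT (-0.73).

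Of 28 HOX genes, which set position along the body axis, 13 were called lower and 2 higher, against backgrounds of 10.1% and 7.78% (median -0.46). HOXC6 fell from 10.2, 10.6 and 12.3 eRPKM to 5.10, 4.63 and 5.21 (-1.07 ± 0.080), and HOXD10 fell by 1.07. About 14% of the HOXC6 exon bases are shared with HOXC4, and 18.2% of those of HOXD10 with HOXD11. HOXC8, which lies inside the annotated span of HOXC6 on chromosome 12 (54402769 to 54406553 within 54384408 to 54424607), rose from 6.33, 5.63 and 6.64 to 12.5, 9.97 and 10.8 eRPKM (0.79 ± 0.10). The genes called lower came from all of the HOXA, HOXB, HOXC and HOXD clusters.

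Neuronal and synaptic genes had a median of -0.0012, with 7 of 26 called higher and 2 lower, against backgrounds of 7.78% and 10.1%. CAMKV and CPLX1, a regulator of vesicle release (1.48 ± 0.19, from 0.528, 0.560 and 0.390 eRPKM to 3.56, 1.84 and 1.71), led the rises, and SYT11 led the falls (-0.67 ± 0.042). OLIG2, a transcription factor of the oligodendrocyte lineage, rose from 7.68, 7.31 and 7.41 eRPKM to 20.8, 23.0 and 21.1 (1.47 ± 0.063). EPCAM, an epithelial adhesion molecule, rose from 4.24, 5.06 and 4.64 to 10.3, 11.2 and 12.9 (1.22 ± 0.13). OLIG2 and EPCAM were chosen after their values were seen. The list of cyclic nucleotide and receptor signalling had 4 higher and 3 lower of 34 (median -0.12), among them ADCYAP1R1, PDE1B and DRD1. In the list of estrogen receptor targets 2 of 12 were called higher and 2 lower, against the same backgrounds (median -0.029). GREB1, a classical target of the receptor, read 2.43, 2.14 and 2.64 eRPKM in ethanol and 1.3, 0.908 and 0.933 in OHT (-0.91).

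To see whether the 48 h response was present earlier, the same genes were read in the separate siCtrl libraries at 24 h, of which there were 2 with ethanol and 2 with OHT. Of the 1166 genes called higher at 48 h, 1126 (96.6%) had a log2 fold change above 0 at 24 h, against 48.1% of all genes tested, with a median of 0.44 at 24 h and 0.70 at 48 h. Of the 1518 called lower, 1458 (96.1%) were below 0 at 24 h, with medians of -0.45 and -0.70. At 24 h itself 1316 genes (8.78%) were called, 551 higher (3.68%) and 765 lower (5.10%). The genes were chosen by their 48 h call, which by itself favours larger values at 48 h, so the medians are a description.

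The difference between the 48 h and 24 h effects, tested over all genes, was called in 266 genes (1.77%), 107 higher (0.714%) and 159 lower (1.06%). This count rested on the 2 libraries per group at 24 h, as it fell to 114 without the first OHT library at 24 h, to 130 without the first ethanol library at 24 h, and to 96 when only the 4 groups compared entered the fit. Of the 266, 213 had also been called at 48 h. The nucleolar list had a median of 0.22 at 24 h and 0.52 at 48 h, and 2 of its 57 members passed the test of the difference, among them RRP12 (0.57 at 24 h, difference 0.60). The CDK inhibitors had a median of -0.46 at 24 h, and CDKN2C passed the test by limma (difference -0.54, adjusted p = 0.0403). That call was lost with the replicate number as a block (adjusted p = 0.0638) and when any 1 of the 4 libraries at 24 h was left out (adjusted p = 0.0709 to 0.141).

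For several of the largest differences the ethanol level stood apart between the times. The OHT level moved less or not at all in MXD4, ADGRL3 and TRAF1, while in KRT34 it rose as the ethanol level fell. MXD4 in ethanol read 8.69 and 8.01 eRPKM at 24 h and 14.03 to 15.01 at 48 h, and in OHT 4.2 and 4.81 at 24 h and 4.21 to 4.81 at 48 h (difference of effects -0.77, adjusted p = 0.00138). ADGRL3, an adhesion receptor of neurons, read 5.27 and 6.25 in ethanol at 24 h and 13.3 to 15.3 at 48 h, and 4.17 and 4.08 in OHT at 24 h and 3.14 to 3.78 at 48 h (-1.47). KRT34, a hair keratin, read 11.5 and 10.5 eRPKM in ethanol at 24 h and 5.27 to 7.04 at 48 h, against 11.2 and 10.4 in OHT at 24 h and 14.8 to 18.03 at 48 h (1.35). In TRAF1 the ethanol libraries read 6.65 and 6.28 eRPKM at 24 h and 2.89 to 3.01 at 48 h, and the OHT libraries 9.02 and 9.18 at 24 h (difference 1.32). Levels at different times came from separate libraries, so the time and any batch that goes with it cannot be told apart.

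RGS16, a brake on G protein signalling, had a smaller effect at 48 h than at 24 h. It read 3.30 and 3.20 eRPKM in ethanol and 15.9 and 16.5 in OHT at 24 h, and 12.8, 12.9 and 9.68 in ethanol and 22.5, 23.2 and 19.8 in OHT at 48 h (difference -1.28, adjusted p = 0.000762). The chemokine CXCL14 read 7.04 and 7.32 eRPKM in ethanol and 18.2 and 17.7 in OHT at 24 h. At 48 h its ethanol libraries read 13.7, 13.4 and 16.9 and its OHT libraries 13.8, 14.9 and 17.3, which overlapped (difference -1.20).

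**Figure D4:**
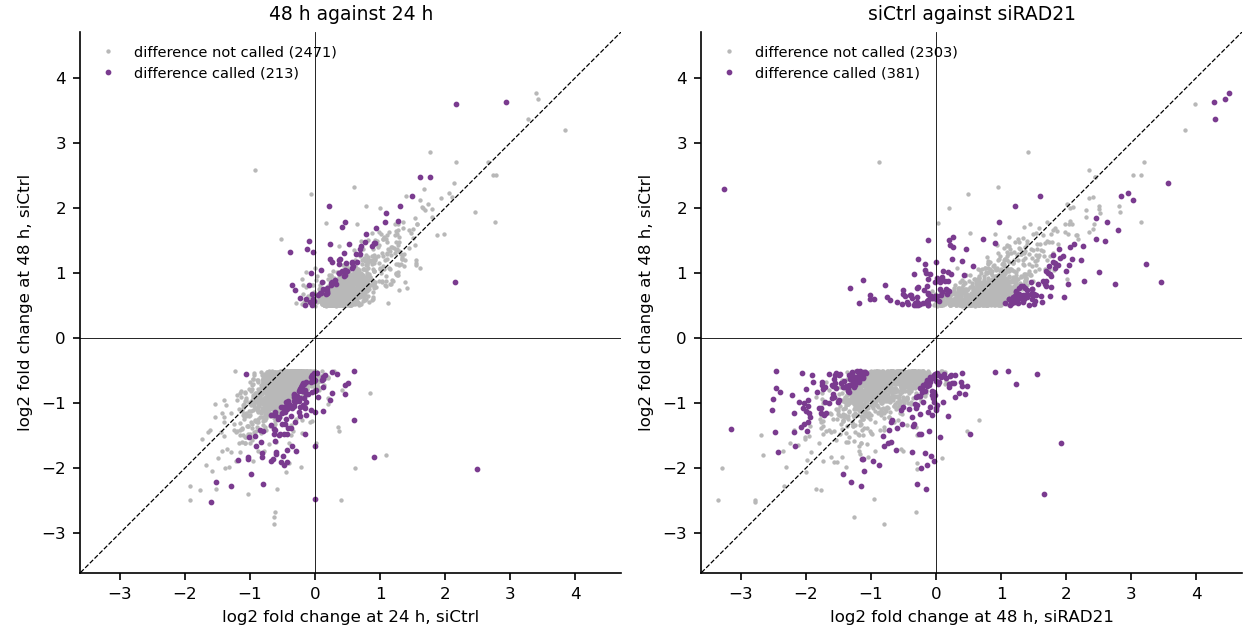
Log2 fold change at 48 h in siCtrl cells (vertical) of the 2684 called genes against that at 24 h in siCtrl cells (left) and at 48 h in siRAD21 cells (right), with equal values on the dashed line. Genes whose difference of effects was called are purple (213 on the left, 381 on the right). Most genes lie in the quadrants of equal sign in both panels.

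The same 48 h comparison in siRAD21 cells, with 2 libraries per group, gave 4281 calls (28.6%), 1853 higher (12.4%) and 2428 lower (16.2%). The 2 siRAD21 OHT libraries differed by less than the sampling noise (chi-square of 0.9804 per gene, against 1.70 to 4.30 between replicates of the siCtrl groups at 48 h), so their means are given without SD. The siRAD21 ethanol libraries at 24 h were also close to the sampling noise (chi-square of 1.061 per gene) and were kept as replicates in every fit. The calls come from the fit with both siRAD21 OHT libraries at 48 h as replicates. Those with these libraries averaged into 1 sample are given beside them, 4083 (27.2%) for this comparison. Of the 1166 genes higher in siCtrl cells, 1104 (94.7%) were above 0 in siRAD21 cells (median 0.80), against 48.6% of all genes tested. Of the same 1166, 885 were called higher there and 13 lower (865 and 11 averaged). Of the 1518 lower, 1472 (97.0%) were below 0 (median -0.79), and 1148 were called lower and 6 higher (1123 and 5 averaged). The difference of the effects was called in 1094 genes (7.30%), of which 499 were higher (3.33%) and 595 lower (3.97%), and in 825 averaged, 408 higher (2.72%) and 417 lower (2.78%).

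In some lists with few or no calls in siCtrl cells, the difference of effects was called higher in 11 of 30 origin genes, 11 of 27 polymerase and fork genes, 8 of 25 G1/S genes and 8 of 27 ATF4 genes, and in none of these was it called lower, against a background of 3.33% higher. Averaged, these counts were 11, 11, 7 and 8. Such differences were not confined to these lists. They were called higher in 6 of 16 serine, glycine and one-carbon enzymes (5 averaged) and 5 of 18 amino acid transporters (5 averaged). In the list of cyclic nucleotide and receptor signalling 7 of 34 were called higher (7 averaged). None was called lower in these 3 lists. The origin list had a median of 0.15 in siCtrl and 0.51 in siRAD21 cells. In the mitotic list no difference was called by limma or voom (34 of 42 had an unadjusted p under 0.05), with medians of 0.0018 and 0.25. For the nucleolar list the medians were 0.52 and 0.59, with no difference called by limma among its 57 genes (24 had an unadjusted p under 0.05) and 1 by voom.

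Several of the largest single differences came with ethanol levels that were lower in siRAD21 cells. LPL, lipoprotein lipase, read 8.05, 9.20 and 9.18 eRPKM in siCtrl ethanol and 18.8, 19.6 and 21.47 in siCtrl OHT, against 2.13 and 2.59 in siRAD21 ethanol and a mean of 26.3 in siRAD21 OHT (difference of effects 2.10, limma adjusted p = 1.07e-07, or 2.52e-06 averaged). The calls named in this and the next paragraph were all kept in the averaged fit. CXCL14 read 1.25 and 0.944 eRPKM in siRAD21 ethanol and a mean of 16.9 in siRAD21 OHT, close to its siCtrl levels (difference 3.39). RGS16 read 4.29 and 4.45 in siRAD21 ethanol and a mean of 53.1 in siRAD21 OHT (2.59). DRD1 lay at 0.299 and 0.378 eRPKM in siRAD21 ethanol and at a mean of 0.258 in siRAD21 OHT, so its difference of 2.17 compares a fall in siCtrl cells with a gene that was near 0 in both siRAD21 groups. The same holds for KRT14, at 0.728 and 0.419 eRPKM in siRAD21 ethanol (1.95).

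Differences in the other direction included KCNA1, a potassium channel. It read 3.07, 3.12 and 1.68 eRPKM in siCtrl ethanol and 4.18, 3.70 and 2.52 in siCtrl OHT, which overlapped, and 11.4 and 11.5 in siRAD21 ethanol against a mean of 4.29 in siRAD21 OHT (difference -1.67). TENM2, a teneurin of neuronal adhesion, read 29.8, 20.1 and 25.2 eRPKM in siCtrl ethanol and 19.0, 12.1 and 12.5 in siCtrl OHT (-0.77), and 30.1 and 24.98 in siRAD21 ethanol against a mean of 4.58 in siRAD21 OHT (difference -1.69). COL17A1, higher by 1.21 in siCtrl cells, was at 5.61 and 4.65 eRPKM in siRAD21 ethanol and a mean of 4.13 in siRAD21 OHT (difference -1.49).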

How the data were processed

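RNA from U2OS-MycER cells was depleted of ribosomal RNA, made into libraries with a kit that does not mark strand, and sequenced as single reads. The authors trimmed or masked bases of quality under 20, aligned reads to hg19 with TopHat2 2.0.8 (version and featureCounts 1.4.5 per the submitters' processing notes), removed duplicates and deposited 1 table of eRPKM, an RPKM over exons. Whole reads and the depth of each library were recovered from the eRPKM steps (all 22040 genes above 0; 99.98 to 99.99% of the depth). Groups were taken from the sample titles. limma 3.58.1 (R 4.3.3) fitted log2(eRPKM + 0.5) of all 18 libraries with 8 group means and a variance trend, with Benjamini-Hochberg adjustment over the 14993 genes with a mean of at least 1 eRPKM; this pseudocount understates the change of low genes. On simulated data with known changes the fit was tested before use.

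The methods speak of 2 biological replicates, while the siCtrl groups at 48 h hold 3 libraries each. The p-values rest on the spread between libraries of the same group, estimated over all 18 libraries, and measure no other spread. The near-identical siRAD21 libraries enter that estimate too. Libraries with the same replicate number deviated together between the siCtrl groups at 48 h (correlations of 0.258, 0.130 and 0.157, against -0.200 to 0.048 for other pairs). The main fit did not use this pairing, and a fit with the replicate number as a block was run as an alternative. Calls, standard errors and adjusted p-values are those of the unpaired main fit unless another fit is named.

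Named genes were MYC, its partners, RAD21 and ESR1; the 12 largest rises and falls among called genes with at least 5 eRPKM in 1 group and no overlap (small RNAs and LOC symbols left out); the 2 called members of each list with the largest change in its main direction and the 1 in the other; the 5 largest in each direction in each test of a difference; and the promoters shown. NCL, NPM1, ODC1, CAD, UMPS, CDKN2D, CDKN1C, CDKN1B, CDKN3, CDKN1A, OLIG2, EPCAM, and genes named without values, were chosen after their values were seen. The members and the 40 lists were chosen with earlier results of these data known. Gene positions are from GENCODE on GRCh37 (hg19); 91.0% of the genes tested were placed. Alternatives were another pseudocount, filter, scaling, variance model or threshold, each library left out, and, chosen after seeing the data, voom on recovered reads, duplicate removal undone with the ceiling, and the near-identical siRAD21 OHT libraries at 48 h averaged in every comparison (for the siRAD21 difference this was planned).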

Additional observations from a re-analysis of the deposited data

Results flagged for a closer look

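Named genes are listed here where the effect of OHT differed between times or knockdowns by the test of the difference in limma (adjusted p under 0.05 and more than 0.5 on the log2 scale). Values are differences of log2 fold changes, and groups of 3 libraries are too small for a check of single outlying libraries.

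The effect at 48 h minus that at 24 h in siCtrl cells was positive for CAMKV (0.69), G0S2 (1.43), GABRA5 (0.87), TNFRSF8 (0.69), RRP12 (0.60), POLR3G (0.53), HK2 (0.70), GDF15 (0.90), BCL2A1 (1.58), COL17A1 (0.83), TRAF1 (1.32), TRIB3 (0.52), KRT34 (1.35), SPX (1.22) and CHRNA9 (1.17). It was negative for MXD4 (-0.77), CYS1 (-0.92), SESN3 (-0.98), KRT14 (-1.45), ABCG1 (-0.69), SOX5 (-1.11), PLXDC2 (-1.39), CDKN2C (-0.54), TP53INP1 (-0.56), COL11A1 (-0.80), COL9A2 (-0.94), ITGB8 (-0.77), FN1 (-0.68), IFI44 (-0.59), SPP1 (-1.01), ADGRL3 (-1.47), GUCY1A2 (-1.31), RGS16 (-1.28), CXCL14 (-1.20) and MFSD2A (-0.89). All genes named here with a positive difference rose at 48 h, whereas among those with a negative difference RGS16 rose, CXCL14 was not called and the others fell at 48 h.

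The effect at 48 h in siRAD21 cells minus that in siCtrl cells was positive for MXD4 (0.91), ADCYAP1R1 (0.73), PDE1B (0.77), CAMKV (0.65), CR2 (0.91), PDZRN3 (1.18), DRD1 (2.17), SESN3 (1.11), KRT14 (1.95), ABCG1 (0.91), SOX5 (0.66), SLC2A12 (0.94), MN1 (1.08), POLR3G (0.85), DHCR7 (0.62), OASL (1.76), IFI44 (0.69), BHLHE41 (1.21), SPX (0.67), GUCY1A2 (0.86), RGS16 (2.59), CXCL14 (3.39), LPL (2.10) and MFSD2A (2.09). It was negative for GDF15 (-1.16), COL17A1 (-1.49), BMPR2 (-0.53), TRAF1 (-0.81), CCL24 (-1.75), PSG5 (-1.72), ALPP (-1.71), TENM2 (-1.69) and KCNA1 (-1.67). MXD4, SESN3, KRT14, ABCG1, SOX5, IFI44, GUCY1A2, RGS16, CXCL14 and MFSD2A carried a negative difference by time together with a positive one by knockdown, GDF15, COL17A1 and TRAF1 carried the reverse, and CAMKV, POLR3G and SPX were positive in both. Both tests use the same 6 siCtrl libraries at 48 h, so these pairs of values are not independent. About 22% of the ALPP exon bases lie in another annotated transcript. With both siRAD21 OHT libraries averaged, the differences by knockdown of MN1 and SPX were not called.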

How the results depend on the processing

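The 48 h comparison kept its 1166 higher and 1518 lower calls within 1.5 times under other pseudocounts, median centring, quantile normalization, the other variance models, no filter, the replicate block, voom on recovered reads and duplicate removal undone. With a mean of at least 5 eRPKM, which tests fewer genes, 1653 were called, 805 of them lower. With no fold change threshold 7991 genes were called, 3910 higher and 4081 lower, and past 1 on the log2 scale 516 were, 224 higher and 292 lower. Leaving out each library in turn gave 2541 to 2882 calls, 1114 to 1238 higher and 1398 to 1680 lower. The 48 h minus 24 h difference, with 266 calls, gave 96 when only the groups compared entered the fit (40 higher, 56 lower), 625 with no fold threshold (332 higher, 293 lower), 50 past 1 (13 higher, 37 lower) and 89 lower calls at 5 eRPKM or more. Leaving out each library it gave 114 to 296 calls, 52 to 124 higher and 62 to 194 lower; the higher calls numbered 71 without siCtrl 48 h replicate 1 and 69 without siCtrl OHT 48 h replicate 2, 59 without siCtrl 24 h replicate 1 and 52 without siCtrl OHT 24 h replicate 1, and the last pair left 71 and 62 lower calls. The siRAD21 minus siCtrl difference, with 1094 calls, gave 720 at 5 eRPKM or more (341 lower), 2587 with no fold threshold (1500 higher, 1087 lower), 200 past 1 (81 higher, 119 lower) and 827 to 1249 leaving out each library, 420 to 560 higher and 397 to 689 lower. The causes of these shifts were not tested beyond the number of genes or libraries used.

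At the same thresholds, 8 of the 95 named genes called at 48 h lost the call under 1 or more of the other alternatives, with the direction kept (ADAMTS1, COL1A1, PFAS, MFSD2A, PSG5, CDKN1B, CAD and UMPS). Among named genes not called, MNT turned from 0.013 to values between -0.16 and 0.185 when 1 library was left out, CXCL14 from 0.063 to values between -0.023 and 0.17, and RAD21 to -0.063 under quantile normalization, to -0.0026 with duplicate removal undone and to between -0.019 and 0.049 when 1 library was left out. KCNA1 gained a limma call at 48 h under quantile normalization (0.51, adjusted p = 0.0369). It also gained one without siCtrl OHT 48 h replicate 3 (0.54, adjusted p = 0.0269). ODC1 gained a call with duplicate removal undone (0.58). Of the 68 differences, 23 lost their call under 1 or more alternatives, most often MN1, CDKN2C, SPX, TNFRSF8 and ABCG1. The replicate block gave 1172 higher and 1542 lower calls and changed the call of no named gene at 48 h. Of the differences it ended the calls by time of CDKN2C and TNFRSF8 (0.69, adjusted p = 0.086) and changed no other call of a named gene. With the siRAD21 OHT libraries averaged, the 48 h comparison gave 2682 calls and the difference by time 234, and the differences by knockdown of MN1 (adjusted p = 0.113) and SPX (0.098) were lost. Depth limits genes of low level: from 1 to 5 eRPKM the median standard error was 0.13, against 0.051 from 20 to 100 eRPKM. The list medians changed sign under another scaling for cytosolic ribosomal proteins, G1/S genes, mitosis, the BCL2 family, ATF4 genes, estrogen receptor targets and neuronal genes.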
